A study of Arabidopsis thaliana with 6 samples.

Results

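The genes described here encode enzymes, carriers and regulatory proteins of the Calvin cycle and of photorespiration in Arabidopsis thaliana. They were chosen as a list of 36 loci, of which 17 serve carbon fixation and 19 serve photorespiration, among 21671 loci that had a read in at least 1 library. This list was chosen with earlier results of these data known, so its shares beside all tested genes are a description and not a test. Of the 36 loci, 35 had reads and 33 were among the 14762 genes with enough counts to be tested. RNA was sequenced from leaf mesophyll protoplasts, which are wall-less leaf cells, of wild-type Col-0 plants. GmWRI1 protoplasts were transiently transfected with a plasmid in which the constitutive 35S promoter of cauliflower mosaic virus drives a cDNA of GmWRI1-A, a soybean WRINKLED1 transcription factor of the APETALA2 family best known for activating fatty acid synthesis in seeds. The mCHERRY protoplasts, the negative control, received a 35S:mCHERRY plasmid encoding a fluorescent protein. Both groups were incubated for 16 h before RNA isolation, and each had 3 biological replicates, which the titles number without saying whether they came from separate plants. P-values then measure only the spread between these libraries. Both groups had been freed from the leaf and taken through transfection, and GmWRI1-A was expressed outside its usual organ. Neither RNA from the plasmids nor the share of cells that took them up was analysed here.

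The Calvin cycle fixes carbon dioxide onto ribulose 1,5-bisphosphate through Rubisco and regenerates that acceptor from triose phosphates in the chloroplast stroma. Rubisco also reacts with oxygen, and photorespiration returns the resulting 2-phosphoglycolate to the cycle through chloroplast, peroxisome and mitochondrion, releasing carbon dioxide and ammonia on the way. Both pathways are most active in illuminated mesophyll cells, and most of their enzymes are encoded in the nucleus and imported into the organelles.

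Counts per library after removal of the line that names no gene ranged from 4155836 to 11748328. Levels are given as CPM, the counts scaled to a common library size by TMM (which limits the weight of a few very abundant transcripts), and values stand in the order of replicates 1, 2 and 3. A count of 0 in a library allows up to 3 counts at 95% confidence, which corresponds to 0.255 to 0.722 CPM across the libraries. Of the marker genes of other leaf cell types, 1 of 5 guard cell, 1 of 5 epidermis, 1 of 5 phloem and 0 of 5 xylem genes had enough counts to be tested. The phloem companion cell marker SUC2 had 0 counts in all but 1 library, and the guard cell marker GC1 had 0 counts in every library. Summed phloem markers were 234 to 330.3 CPM in GmWRI1 and 31.4 to 34.0 CPM in mCHERRY libraries, nearly all of it from AHA3, a plasma membrane proton pump gene (log2 fold change 3.05, edgeR adjusted p = 3.11e-14). Summed epidermis markers were 3.44 to 5.12 CPM in GmWRI1 and 0.122 to 0.974 CPM in mCHERRY libraries, led by the lipid transfer protein gene LTP1 (log2 fold change 3.76). Summed guard cell markers were 1.21 to 3.59 CPM in GmWRI1 and 1.24 to 2.27 CPM in mCHERRY libraries. Summed mesophyll markers were 89.0 to 105.9 CPM in GmWRI1 and 78.9 to 81.9 CPM in mCHERRY libraries. Of these 5 genes, 3 were higher by the edgeR adjusted p (LHCB3, LHCB6 and PSAD1, which encode antenna and photosystem proteins), against 20.4% of all tested genes. LHCB2.2, LHCB3, LHCB6 and PSAD1 are also among the photosystem and antenna genes described below. CA1, the major chloroplast carbonic anhydrase, did not pass the test (log2 fold change -0.15, edgeR adjusted p = 0.321). The part of these markers in the results was not tested. In such bulk samples, fewer cells of a type and less RNA per cell cannot be told apart.

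Most of the 36 genes had higher RNA levels in GmWRI1 than in mCHERRY protoplasts. Among the 33 tested genes, 17 were up-regulated by over 2-fold at an edgeR adjusted p under 0.05 and none was down-regulated past both limits, against 9.44% of all tested genes up-regulated and 1.45% down-regulated. By the adjusted p alone, 29 were higher and 1 was lower in GmWRI1 protoplasts, against 20.4% and 14.6% of all tested genes. All 3 GmWRI1 libraries lay above all 3 mCHERRY libraries for 29 of the 33 genes and below them for none, against 24.9% above and 21.1% below among all tested genes. The other 4 genes, whose groups overlapped, were TKL2, CP12-2, GLDH3 and GLYK. The median log2 fold change was 1.03 over the 33 genes and -0.01 over all tested genes. The plot of the level of each gene in every library shows the separation of the groups gene by gene.

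**Figure D1:**
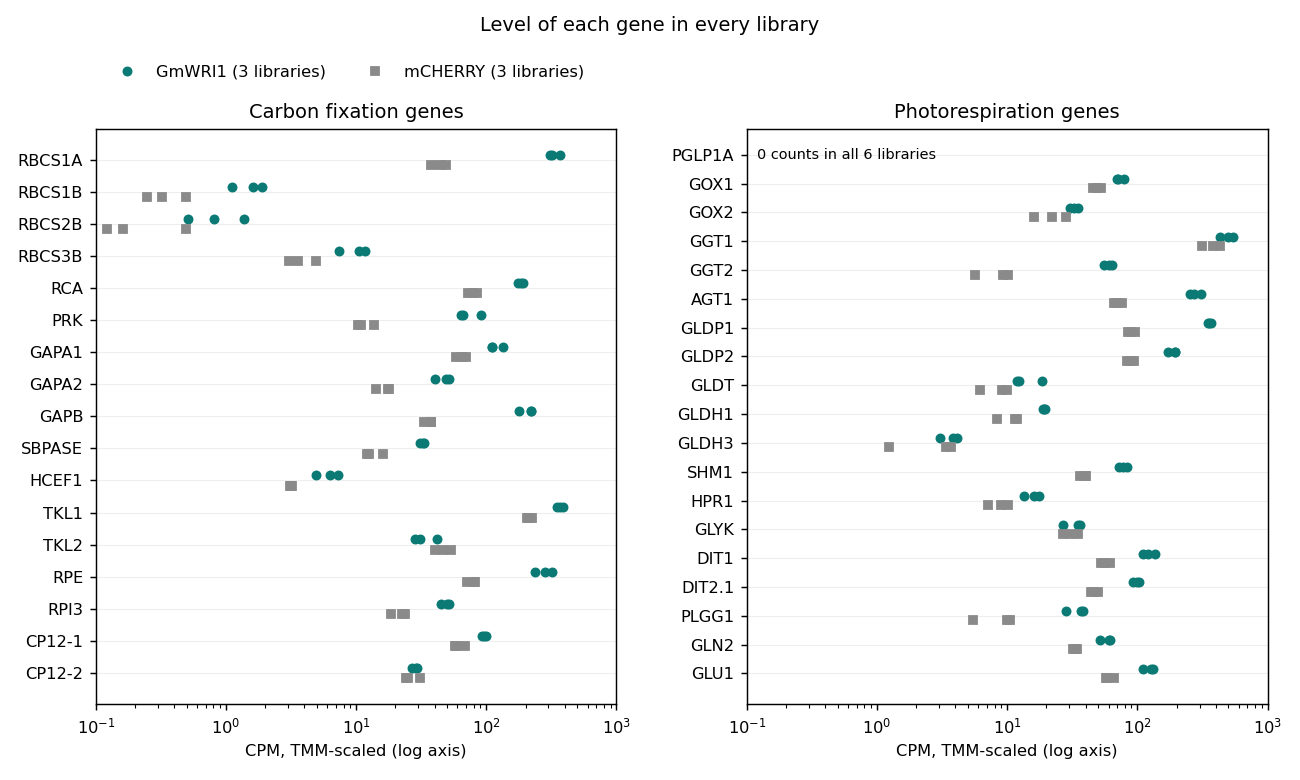
TMM-scaled CPM of each of the 36 genes on a log axis, with carbon fixation genes on the left and photorespiration genes on the right. Circles are the 3 GmWRI1 libraries, drawn above the squares of the 3 mCHERRY libraries. The groups separate for most genes and overlap for TKL2, CP12-2, GLDH3 and GLYK, and PGLP1A had 0 counts in all 6 libraries.

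The start regions of all 36 genes were searched for the AW Box, the DNA element of WRI1 proteins written CNTNGNNNNNNNCG, on both strands and within 500 bases of the annotated start site. The AW Box was chosen because it is the known binding sequence of WRI1 proteins. Downstream matches are shown for RBCS1A, GGT2, RPE, AGT1 and GLDP1, genes with a large rise that held such a match. TKL2, the gene with a lower level in GmWRI1 protoplasts, is shown beside them. PRK and GAPB rose more than RPE, AGT1 and GLDP1 but held no downstream match. PLGG1, which rose more than RPE, held none either. Of all tested genes, 42.8% held a downstream match. A match is a description of the letters in the reference genome, not a bound site. Sequences are from the RefSeq TAIR10.1 assembly, read 5′ to 3′ on the strand of the match, with the 14 bases of the AW Box in capitals and 8 flanking bases on each side. RBCS1A also held a match in a coding exon (chr1:25049174-25049187, centred 487 bases downstream), and TKL2 also held 1 in a coding exon at 449 bases, and for both genes the match nearer to the start site is shown. The first 3 lie in 5′ UTRs, the match of AGT1 lies in an intron, that of GLDP1 lies in a coding exon, and that of TKL2 lies in its 5′ UTR.
RBCS1A: agaacaagCTTTGGAGTGATCGgagggtct
GGT2: gaacgtgaCTTTGGAGGTAACGaaactgtg
RPE: agccgctgCATTGGATCATCCGaacaagga
AGT1: atttacttCTTCGTTTTCTCCGcttgtttg
GLDP1: acacctcaCCTTGTTCCTCACGctccggcg
TKL2: caactaatCATTGCTTTTTACGctaattat
These AW Boxes are at chr1:25049334-25049347 on the plus strand for RBCS1A, chr1:26612753-26612766 on the plus strand for GGT2 and chr5:24686061-24686074 on the minus strand for RPE. Those of AGT1, GLDP1 and TKL2 are on the minus strand at chr2:5541189-5541202, chr4:15931048-15931061 and chr2:18672517-18672530. Their centres lie 327 bases (RBCS1A), 400 bases (GGT2), 150 bases (RPE), 214 bases (AGT1), 368 bases (GLDP1) and 26 bases (TKL2) downstream of the start site.

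Rubisco small subunit genes head the carbon fixation list, since Rubisco assembles from a chloroplast-encoded large subunit and nuclear-encoded small subunits. RBCS1A (AT1G67090, chr1:25048158-25049667) had 318, 369 and 307 CPM in the GmWRI1 libraries, against 37.4, 44.0 and 48.7 CPM in the mCHERRY libraries. It was the gene with the largest log2 fold change of the 33, at 2.95 ± 0.11 (SE, edgeR adjusted p = 5.96e-15), and its groups did not overlap. RBCS3B (AT5G38410, chr5:15376988-15378416) had 7.35, 11.6 and 10.5 CPM in the GmWRI1 libraries, against 3.06, 3.57 and 4.95 CPM in the mCHERRY libraries. The groups were again separate at a much lower level (log2 fold change 1.37 ± 0.26 (SE), edgeR adjusted p = 0.000304). RBCS1B (AT5G38430, chr5:15383167-15385320) had only 22, 8 and 8 counts in the GmWRI1 libraries and 4, 2 and 1 counts in the mCHERRY libraries. RBCS2B (AT5G38420, chr5:15380907-15382071) had 6, 10 and 4 counts in the GmWRI1 libraries and 1, 1 and 2 counts in the mCHERRY libraries. Neither had enough counts for the test. Summed over the 4 genes, the small subunit level was 328, 383 and 320.3 CPM in the GmWRI1 libraries, against 41.1, 48.0 and 54.4 CPM in the mCHERRY libraries. RBCS1A supplied most of this sum in each library.

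The 4 small subunit genes share sequence, which bears on how their reads could be counted. Of the 36-base windows of each transcript, 3.33% in RBCS1A, 17.7% in RBCS1B, 33.2% in RBCS2B and 23.3% in RBCS3B were identical to a stretch of another transcript, and reads with several equally good locations were not kept by the authors. Of 86-base windows, which stand for longer reads, 0.0% in RBCS1A, 8.02% in RBCS1B, 1.88% in RBCS2B and 14.19% in RBCS3B were shared. The levels of RBCS1B, RBCS2B and RBCS3B, which lie next to each other on chromosome 5, are therefore uncertain. How uncertain depends on the read length, which was not given. The stretch shown here, bases 151 to 180 of each coding sequence from the start codon, is identical in these 3 genes and differs from RBCS1A at 3 bases, given in capitals.
RBCS1A: ggaagagttaActgcatgCaggtgtggccT
RBCS1B: ggaagagttaGctgcatgAaggtgtggccA
RBCS2B: ggaagagttaGctgcatgAaggtgtggccA
RBCS3B: ggaagagttaGctgcatgAaggtgtggccA
The coding sequences of RBCS1B and RBCS2B were identical at 97.3% of their 546 bases. By contrast with RBCS1A, the large subunit gene RBCL, which is transcribed in the chloroplast, had 8103, 7545 and 7889 CPM in the GmWRI1 libraries, against 8067, 8099 and 8988 CPM in the mCHERRY libraries. Its groups overlapped (log2 fold change -0.10 ± 0.09 (SE), edgeR adjusted p = 0.431).

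Rubisco activase and the enzymes that reduce the first product of fixation were also higher in GmWRI1 protoplasts. Rubisco activase, RCA (AT2G39730), removes inhibitory sugar phosphates from Rubisco and had 185 ± 8.40 CPM in GmWRI1 cells and 78.7 ± 5.91 CPM in mCHERRY cells (mean ± SD, n = 3 each, as in all values of this form). Its log2 fold change was 1.23 (edgeR adjusted p = 8.37e-10). Plastid glyceraldehyde 3-phosphate dehydrogenase, which uses NADPH to reduce 1,3-bisphosphoglycerate, is built from A subunits (GAPA1, GAPA2) and B subunits (GAPB). GAPB (AT1G42970, chr1:16127353-16129895) had 221, 219 and 179 CPM in the GmWRI1 libraries, against 37.4, 37.3 and 33.4 CPM in the mCHERRY libraries. The lowest GmWRI1 library was far above the highest mCHERRY library (log2 fold change 2.51 ± 0.11 (SE), edgeR adjusted p = 5.57e-14). GAPA2 (AT1G12900, chr1:4392450-4394400) had 51.4, 49.4 and 40.0 CPM in the GmWRI1 libraries, against 18, 17.5 and 14.1 CPM in the mCHERRY libraries. It passed both limits (log2 fold change 1.49 ± 0.14 (SE), edgeR adjusted p = 1.86e-08), with no overlap between groups. GAPA1 (AT3G26650), the more abundant A subunit gene, had 118 ± 13.2 CPM in GmWRI1 cells and 64.4 ± 5.40 CPM in mCHERRY cells. Its groups did not overlap either, but the log2 fold change of 0.88 was under the 2-fold limit (edgeR adjusted p = 8.48e-07).

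Phosphoribulokinase, PRK, makes the Rubisco substrate by phosphorylating ribulose 5-phosphate. PRK (AT1G32060, chr1:11532199-11534639) had 66.0, 91.5 and 64.1 CPM in the GmWRI1 libraries, against 10.4, 13.8 and 10.9 CPM in the mCHERRY libraries. It had the next largest log2 fold change of the carbon fixation genes after RBCS1A (log2 fold change 2.66 ± 0.16 (SE), edgeR adjusted p = 1.45e-11). The CP12 proteins are small scaffolds that hold PRK and the A-subunit dehydrogenase in an inactive complex in the dark. CP12-1 (AT2G47400) had 96.2 ± 3.37 CPM in GmWRI1 cells and 61.8 ± 6.07 CPM in mCHERRY cells, with no overlap (log2 fold change 0.65 ± 0.10 (SE), edgeR adjusted p = 2.73e-05). CP12-2 (AT3G62410) had 28.4 ± 1.52 CPM in GmWRI1 cells and 26.6 ± 3.54 CPM in mCHERRY cells, and its groups overlapped (log2 fold change 0.11 ± 0.13 (SE), edgeR adjusted p = 0.562).

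The next genes encode enzymes that regenerate ribulose 5-phosphate from triose phosphates. Plastid ribulose phosphate 3-epimerase, RPE (AT5G61410, chr5:24683606-24686217), had 284, 320.2 and 235 CPM in the GmWRI1 libraries, against 80.2, 81.3 and 70.8 CPM in the mCHERRY libraries. It was well separated between groups (log2 fold change 1.85 ± 0.11 (SE), edgeR adjusted p = 1.33e-11). Plastid ribose 5-phosphate isomerase, RPI3 (AT3G04790), had 48.7 ± 3.35 CPM in GmWRI1 cells and 21.5 ± 2.63 CPM in mCHERRY cells (log2 fold change 1.16 ± 0.13 (SE), edgeR adjusted p = 2.27e-07). Sedoheptulose 1,7-bisphosphatase, SBPASE (AT3G55800), catalyses an irreversible step of regeneration and had 32.2 ± 1.16 CPM in GmWRI1 cells and 13.6 ± 2.22 CPM in mCHERRY cells (log2 fold change 1.22 ± 0.15 (SE), edgeR adjusted p = 8.60e-07). Plastid fructose 1,6-bisphosphatase, HCEF1 (AT3G54050), was the gene with the fewest counts among the tested carbon fixation genes, at 6.14 ± 1.12 CPM in GmWRI1 cells and 3.16 ± 0.0686 CPM in mCHERRY cells. Its groups did not overlap, but its log2 fold change of 0.93 (edgeR adjusted p = 0.0117) became 0.79 with edgeR adjusted p = 0.0597 without GmWRI1 replicate 2. In the RefSeq annotation, RPI3 and HCEF1 overlap genes on the opposite strand by 235 and 120 bases, so that 20.9% and 5.36% of their 36-base windows were shared with the neighbour. Strand was not stated to have been used in counting. Whether these neighbours were among the transcripts that the authors aligned to was not checked.

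Transketolase moves 2-carbon units between sugar phosphates, and its plastid isoforms were the only isoform pair of the 7 examined with adjusted p under 0.05 in opposite directions. TKL1 (AT3G60750), the major isoform, had 368 ± 21.1 CPM in GmWRI1 cells and 214 ± 9.95 CPM in mCHERRY cells, with no overlap (log2 fold change 0.79 ± 0.09 (SE), edgeR adjusted p = 3.21e-07). TKL2 (AT2G45290, chr2:18672497-18676451) had 30.8, 28.2 and 41.9 CPM in the GmWRI1 libraries, against 40.2, 53.7 and 46.5 CPM in the mCHERRY libraries. TKL2 was the single gene of the 33 with a lower level in GmWRI1 protoplasts (log2 fold change -0.49 ± 0.14 (SE), edgeR adjusted p = 0.00984), and its groups overlapped, since GmWRI1 replicate 3 lay above mCHERRY replicate 1. This call was lost without GmWRI1 replicate 2 (log2 fold change -0.39, edgeR adjusted p = 0.0604) and without mCHERRY replicate 2 (log2 fold change -0.38, edgeR adjusted p = 0.0926). Of the 15 tested carbon fixation genes, 9 passed both limits upward, against 9.44% of all tested genes. By the adjusted p alone, 13 were higher and 1 was lower, against 20.4% and 14.6% of all tested genes. The remaining gene, CP12-2, did not pass. Log2 fold changes of the 15 genes spanned -0.49 to 2.95, with a median of 1.22.

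Photorespiration begins with 2-phosphoglycolate phosphatase, for which PGLP1A (AT5G36700) had 0 counts in all 6 libraries. The transcript shares 98.9% of its 36-base windows with that of its near-identical copy PGLP1B (AT5G36790), which also had 0 counts. A count of 0 for these genes therefore says nothing of their expression, since such reads match both copies equally well. Glycolate leaves the chloroplast through PLGG1, the plastid glycolate and glycerate carrier. PLGG1 (AT1G32080, chr1:11537242-11539896) had 36.9, 37.9 and 28.3 CPM in the GmWRI1 libraries, against 10.5, 9.90 and 5.44 CPM in the mCHERRY libraries. Its groups were well apart (log2 fold change 1.94 ± 0.18 (SE), edgeR adjusted p = 2.38e-08).

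In the peroxisome, glycolate oxidase makes glyoxylate, which aminotransferases convert to glycine. GOX1 (AT3G14420) had 73.3 ± 5.49 CPM in GmWRI1 cells and 49.2 ± 3.39 CPM in mCHERRY cells, without overlap (log2 fold change 0.58 ± 0.11 (SE), edgeR adjusted p = 0.000161). GOX2 (AT3G14415), a neighbouring glycolate oxidase gene that shares 5.31% of its 36-base windows with GOX1, had 32.7 ± 2.15 CPM in GmWRI1 cells and 22.2 ± 6.21 CPM in mCHERRY cells (log2 fold change 0.60 ± 0.16 (SE), edgeR adjusted p = 0.00572). The GOX2 call was lost without mCHERRY replicate 1 (log2 fold change 0.39, edgeR adjusted p = 0.0653). GGT1 and GGT2 encode glutamate:glyoxylate aminotransferases. GGT2 (AT1G70580, chr1:26612359-26616071) had 63.7, 60.8 and 55.4 CPM in the GmWRI1 libraries, against 10.2, 9.25 and 5.69 CPM in the mCHERRY libraries. It had the largest log2 fold change of the photorespiration genes (log2 fold change 2.79 ± 0.16 (SE), edgeR adjusted p = 4.67e-12), and all 3 GmWRI1 libraries lay far above the mCHERRY libraries. GGT1 (AT1G23310), the major isoform, had 491 ± 57.9 CPM in GmWRI1 cells and 376 ± 57.0 CPM in mCHERRY cells. Its groups did not overlap and the difference was small (log2 fold change 0.38 ± 0.11 (SE), edgeR adjusted p = 0.00846), and the call was lost without mCHERRY replicate 3 (log2 fold change 0.27, edgeR adjusted p = 0.0634). Serine:glyoxylate aminotransferase, AGT1 (AT2G13360, chr2:5538740-5541409), had 272, 308 and 253 CPM in the GmWRI1 libraries, against 76.8, 66.5 and 69.3 CPM in the mCHERRY libraries. The groups were far apart (log2 fold change 1.97 ± 0.10 (SE), edgeR adjusted p = 1.21e-12).

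In mitochondria, the glycine decarboxylase complex and serine hydroxymethyltransferase turn glycine into serine with release of carbon dioxide and ammonia. The P protein carries out the decarboxylation, and GLDP1 (AT4G33010, chr4:15926652-15931422) had 346, 365 and 352 CPM in the GmWRI1 libraries, against 84.7, 95.3 and 89.6 CPM in the mCHERRY libraries. Replicates agreed closely within each group (log2 fold change 1.98 ± 0.09 (SE), edgeR adjusted p = 1.73e-13). GLDP2 (AT2G26080), the other P protein gene, had 187 ± 12.4 CPM in GmWRI1 cells and 88.4 ± 5.06 CPM in mCHERRY cells (log2 fold change 1.08 ± 0.09 (SE), edgeR adjusted p = 6.25e-09). The H protein shuttles the lipoyl-bound intermediate, and GLDH1 (AT2G35370) had 19.2 ± 0.380 CPM in GmWRI1 cells and 10.5 ± 1.95 CPM in mCHERRY cells (log2 fold change 0.87 ± 0.17 (SE), edgeR adjusted p = 0.000395). GLDH3 (AT1G32470), the photorespiration gene with the fewest counts among those tested, had 3.66 ± 0.552 CPM in GmWRI1 cells and 2.77 ± 1.34 CPM in mCHERRY cells. Its groups overlapped (log2 fold change 0.32 ± 0.34 (SE), edgeR adjusted p = 0.51). The T protein gene GLDT (AT1G11860) had 14.3 ± 3.71 CPM in GmWRI1 cells and 8.41 ± 1.98 CPM in mCHERRY cells, with no overlap (log2 fold change 0.79 ± 0.22 (SE), edgeR adjusted p = 0.00715). That call was lost without GmWRI1 replicate 1 (log2 fold change 0.53, edgeR adjusted p = 0.0907) and without mCHERRY replicate 2 (log2 fold change 0.60, edgeR adjusted p = 0.0659). SHM1 (AT4G37930), the mitochondrial serine hydroxymethyltransferase of leaves, had 77.6 ± 5.62 CPM in GmWRI1 cells and 38.8 ± 2.07 CPM in mCHERRY cells and lay just under the 2-fold limit (log2 fold change 0.99 ± 0.11 (SE), edgeR adjusted p = 1.68e-07).

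The pathway closes with hydroxypyruvate reductase in the peroxisome and glycerate kinase in the chloroplast. HPR1 (AT1G68010) had 15.6 ± 1.94 CPM in GmWRI1 cells and 8.72 ± 1.45 CPM in mCHERRY cells, with no overlap (log2 fold change 0.81 ± 0.19 (SE), edgeR adjusted p = 0.00159). GLYK (AT1G80380), which phosphorylates glycerate for return to the Calvin cycle, had 32.6 ± 5.23 CPM in GmWRI1 cells and 30.7 ± 3.95 CPM in mCHERRY cells. It did not pass the test and its groups overlapped (log2 fold change 0.11 ± 0.14 (SE), edgeR adjusted p = 0.588).

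Released ammonia is refixed in the chloroplast by glutamine synthetase and ferredoxin-dependent glutamate synthase, which depend on dicarboxylate carriers of the inner envelope. DIT1 (AT5G12860, chr5:4059579-4062289), the 2-oxoglutarate/malate carrier, had 136, 110.2 and 119.7 CPM in the GmWRI1 libraries, against 61.3, 56.1 and 52.4 CPM in the mCHERRY libraries. It passed both limits (log2 fold change 1.1 ± 0.10 (SE), edgeR adjusted p = 2.77e-08). DIT2.1 (AT5G64290), the glutamate/malate carrier, had 98.6 ± 4.81 CPM in GmWRI1 cells and 46.8 ± 2.73 CPM in mCHERRY cells (log2 fold change 1.08 ± 0.10 (SE), edgeR adjusted p = 1.80e-08). Ferredoxin-dependent glutamate synthase, GLU1 (AT5G04140), had 123 ± 10.9 CPM in GmWRI1 cells and 60.8 ± 5.03 CPM in mCHERRY cells (log2 fold change 1.03 ± 0.10 (SE), edgeR adjusted p = 5.66e-08). Plastid glutamine synthetase, GLN2 (AT5G35630), had 57.9 ± 5.46 CPM in GmWRI1 cells and 33.3 ± 1.33 CPM in mCHERRY cells (log2 fold change 0.80 ± 0.11 (SE), edgeR adjusted p = 9.00e-06). The groups of these 4 genes did not overlap. Of the 18 tested photorespiration genes, 8 passed both limits upward, against 9.44% of all tested genes. By the adjusted p alone, 16 were higher and 0 were lower, against 20.4% and 14.6% of all tested genes. The other 2, GLDH3 and GLYK, did not pass. Log2 fold changes of the 18 genes spanned 0.11 to 2.79, with a median of 0.93.

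**Figure D2:**
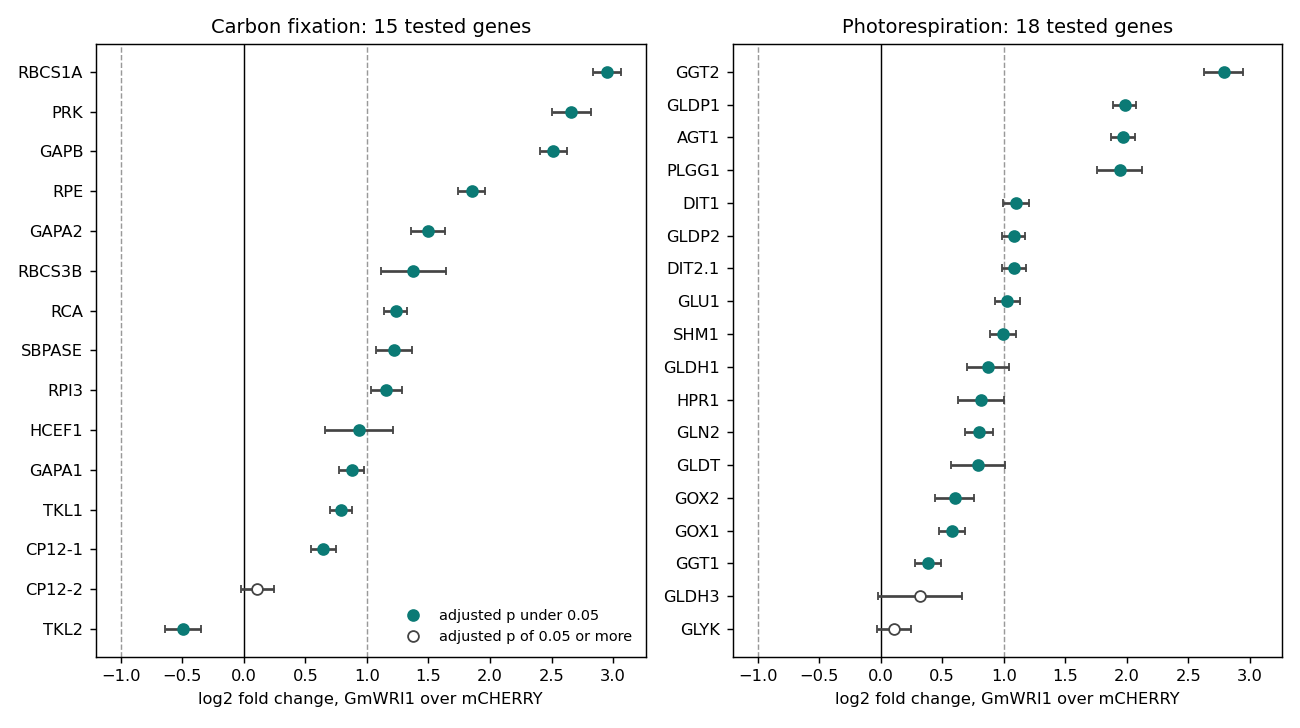
Log2 fold change of GmWRI1 over mCHERRY for the 15 tested carbon fixation genes (left) and the 18 tested photorespiration genes (right), sorted by size. Bars are standard errors, filled circles have an edgeR adjusted p under 0.05 and dashed lines mark a 2-fold change. RBCS1A, PRK and GAPB lead the carbon fixation genes and GGT2 leads the photorespiration genes, and TKL2 is the single gene below 0.

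Carbon fixation was then set against photorespiration. The summed level of the carbon fixation genes was 1873, 1998 and 1732 CPM in the GmWRI1 libraries, against 720.2, 721 and 718 CPM in the mCHERRY libraries, a ratio of group means of 2.59. For the photorespiration genes it was 2170.2, 2018 and 2038 CPM in the GmWRI1 libraries, against 1065, 1015 and 952 CPM in the mCHERRY libraries, a ratio of 2.05. Both sums were higher in every GmWRI1 library than in any mCHERRY library. Divided by the photorespiration sum of the same library, the carbon fixation sum was 0.863, 0.990 and 0.850 in the GmWRI1 libraries, against 0.677, 0.711 and 0.754 in the mCHERRY libraries, again without overlap. That separation was lost without RBCS1A, in a comparison added after the data were seen. The quotient was then 0.716, 0.808 and 0.699 in the GmWRI1 libraries, against 0.641, 0.667 and 0.703 in the mCHERRY libraries. The groups overlapped because GmWRI1 replicate 3 lay just below mCHERRY replicate 3. Other abundant genes, such as GGT1, were not left out in turn, so the separation cannot be credited to RBCS1A alone. The median log2 fold changes of 1.22 for carbon fixation and 0.93 for photorespiration differed in the same direction, but the distributions covered each other widely, and the difference between the lists was not tested. These sums weigh abundant genes most. RBCS1A, GAPB, TKL1 and RPE are the leading terms of the carbon fixation sum in GmWRI1 protoplasts, and GGT1 and GLDP1 lead the photorespiration sum.

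Levels can be compared between genes only per length of transcript, taken here from the RefSeq TAIR10.1 transcript with the same number as in the files. The authors counted reads on TAIR10 primary transcripts, whose lengths may differ and were not compared. RBCS1A had 261 ± 25.8 CPM per kb in GmWRI1 cells and 34.2 ± 4.48 CPM per kb in mCHERRY cells. RPE had 184 ± 28.0 CPM per kb in GmWRI1 cells and 50.9 ± 3.82 CPM per kb in mCHERRY cells. GGT1 had 223 ± 26.3 CPM per kb in GmWRI1 cells and 170.3 ± 25.9 CPM per kb in mCHERRY cells. In GmWRI1 protoplasts, RBCS1A thus stood with GGT1 and RPE at the top of the 36 genes. Per kb, RBCS1A lay above GGT1 in every GmWRI1 library, while GGT1 and RPE changed order between these libraries. The order of these genes was not tested. In mCHERRY protoplasts, GGT1 was first, and CP12-1 followed with 67.7 ± 6.65 CPM per kb beside TKL1 with 66.8 ± 3.11 CPM per kb. These levels per kb of CP12-1 and TKL1 were close, and their order was not tested. Among the tested genes, HCEF1 had 3.79 ± 0.693 CPM per kb in GmWRI1 cells and 1.95 ± 0.0423 CPM per kb in mCHERRY cells, the lowest level per kb in each group.

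The share of each isoform within its step was compared for 7 pairs, and in 5 of them the groups did not overlap. Among single genes, 24.9% of all tested genes separated upward and 21.1% downward, and pairs of other genes were not examined. Isoform shares follow from the levels of the same genes given above and are not a separate result. These shares are of counts, not corrected for transcript length, so they serve to compare the groups and not the genes of a pair. GLDP1 supplied 64.1%, 65.2% and 67.1% of the counts of both P protein genes in the GmWRI1 libraries, against 47.5%, 53.2% and 50.5% in the mCHERRY libraries. TKL1 supplied 91.6 ± 2.1% of transketolase counts in GmWRI1 protoplasts and 82.0 ± 2.79% in mCHERRY protoplasts (SD, n = 3 each). The CP12-1 share of the CP12 pair was 77.2 ± 1.08% in GmWRI1 protoplasts and 69.9 ± 0.711% in mCHERRY protoplasts. In the other direction, GGT1 supplied 89.0 ± 1.27% of its pair in GmWRI1 protoplasts and 97.9 ± 0.324% in mCHERRY protoplasts. The GAPA1 share of A subunit counts was 71.6 ± 2.16% in GmWRI1 protoplasts and 79.6 ± 1.1% in mCHERRY protoplasts. Each of these 5 pairs gave p = 0.1 (adjusted p = 0.14 over 7 pairs) in a two-sided exact permutation test, the smallest p that 3 libraries against 3 can give, so that the design cannot reach a p under 0.05. The GLDH1 share of the H protein pair was 84.0 ± 1.81% in GmWRI1 protoplasts and 79.1 ± 9.97% in mCHERRY protoplasts, and the GOX1 share of the glycolate oxidase pair was 69.2 ± 1.04% in GmWRI1 protoplasts and 69.3 ± 5.53% in mCHERRY protoplasts. Both of those pairs overlapped (exact permutation p = 0.5 and 1).

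**Figure D3:**
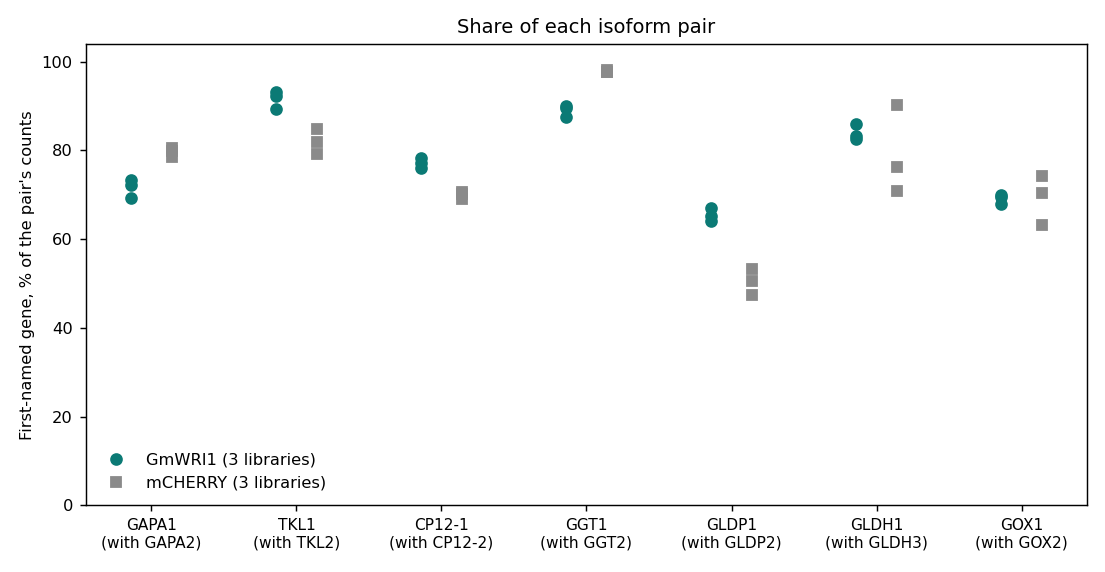
Percentage of the counts of each isoform pair that came from the first-named gene, with 1 point per library, the GmWRI1 libraries as circles on the left of each pair and the mCHERRY libraries as squares on the right. GmWRI1 libraries lie above mCHERRY libraries for TKL1, CP12-1 and GLDP1, lie below them for GAPA1 and GGT1, and overlap with them for GLDH1 and GOX1.

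Further genes of the same pathways, which are not among the 36, were examined from a list of other Calvin cycle and Rubisco assembly genes. Of 17 tested genes on it, 7 were up-regulated past both limits and 0 were down-regulated, against 9.44% and 1.45% of all tested genes, with a median log2 fold change of 0.72. Plastid phosphoglycerate kinase, which uses ATP to make 1,3-bisphosphoglycerate, was higher for both of its genes. PGK2 (AT1G56190) had 31.2, 36.1 and 32.0 CPM in the GmWRI1 libraries, against 4.77, 6.0 and 4.70 CPM in the mCHERRY libraries (log2 fold change 2.67 ± 0.17 (SE), edgeR adjusted p = 4.29e-11), and PGK1 (AT3G12780) had 83.4 ± 9.23 CPM in GmWRI1 cells and 19.9 ± 2.58 CPM in mCHERRY cells (log2 fold change 2.07 ± 0.13 (SE), edgeR adjusted p = 2.11e-11). The plastid aldolase gene FBA1 (AT2G21330) had 7.68 ± 2.52 CPM in GmWRI1 cells and 2.55 ± 0.587 CPM in mCHERRY cells (log2 fold change 1.67 ± 0.30 (SE), edgeR adjusted p = 0.000175), and the triose phosphate/phosphate translocator TPT (AT5G46110), which exports the product of the cycle, had 40.7 ± 3.57 CPM in GmWRI1 cells and 16.3 ± 1.64 CPM in mCHERRY cells (log2 fold change 1.32 ± 0.13 (SE), edgeR adjusted p = 7.79e-08). RBCX2, a chaperone of Rubisco assembly, had 408 ± 25.8 CPM in GmWRI1 cells and 432 ± 8.68 CPM in mCHERRY cells and did not pass (edgeR adjusted p = 0.499). Of 12 other tested photorespiration genes, 1 was up-regulated past both limits, a share near the 9.44% of all tested genes, 4 were higher by the adjusted p alone, against 20.4% of all tested genes, and the median log2 fold change was 0.25. The up-regulated gene was HPR3 (AT1G12550), a further hydroxypyruvate reductase, with 27.0, 32.2 and 30.3 CPM in the GmWRI1 libraries, against 2.32, 1.3 and 1.73 CPM in the mCHERRY libraries (log2 fold change 4.0 ± 0.22 (SE), edgeR adjusted p = 3.57e-12). Peroxisomal catalase CAT2 (AT4G35090), which removes the hydrogen peroxide of glycolate oxidase, had 869 ± 50.6 CPM in GmWRI1 cells and 627 ± 47.9 CPM in mCHERRY cells (log2 fold change 0.47 ± 0.09 (SE), edgeR adjusted p = 0.000251).

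Nuclear genes of the photosystems, antennae and electron transport were examined beside them as another set of photosynthesis genes. Of 47 tested genes, 18 were up-regulated past both limits, against 9.44% of all tested genes. By the adjusted p alone, 42 were higher and 0 were lower, against 20.4% and 14.6% of all tested genes, and the median log2 fold change was 0.85. Their summed level was 1805, 1938 and 1801 CPM in the GmWRI1 libraries, against 900.4, 884 and 1005 CPM in the mCHERRY libraries, a ratio of group means of 1.99. The 4 with the largest log2 fold changes were LHCB4.3 (3.73), PSAH2 (2.37), PSBX (1.95) and PETE2 (1.87). The folds of LHCB4.3 and PSAH2 rest on few counts. LHCB4.3 had 82, 63 and 33 counts in the GmWRI1 libraries and 4, 3 and 3 counts in the mCHERRY libraries, and PSAH2 had 30, 26 and 13 counts in the GmWRI1 libraries and 4, 1 and 5 counts in the mCHERRY libraries. No difference in response between these genes and the 36 was tested.

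**Figure D4:**
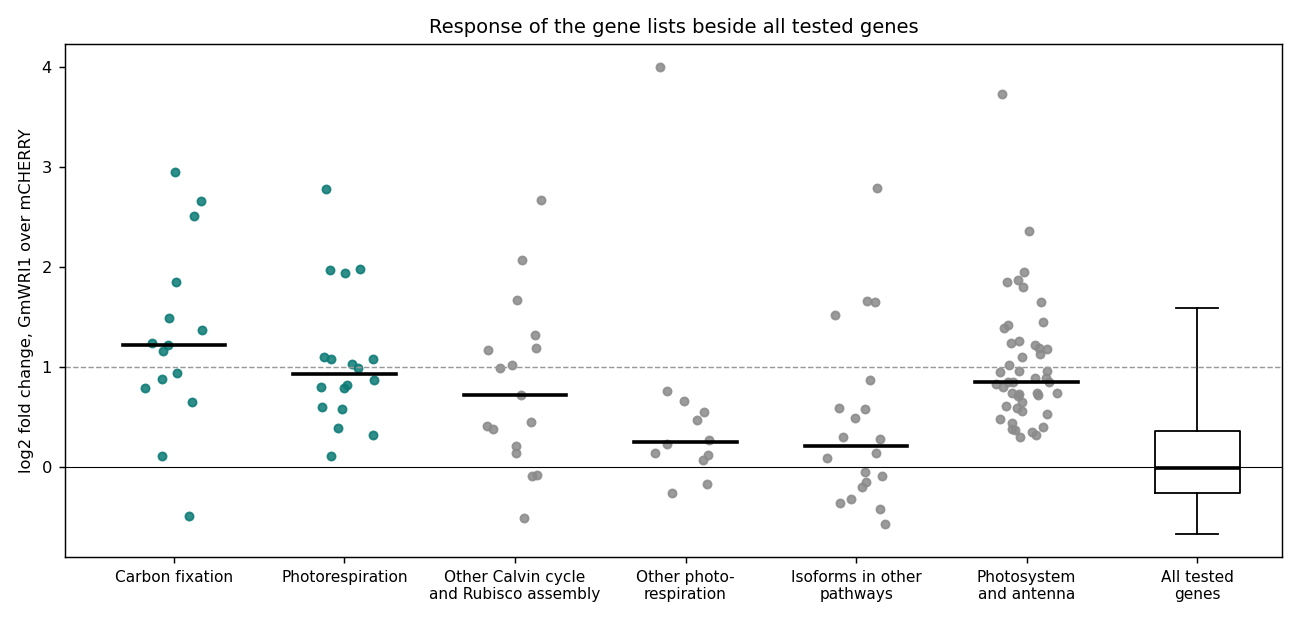
Log2 fold change of GmWRI1 over mCHERRY for the tested genes of each list, with 1 point per gene and a black bar at the median, beside a box of all 14762 tested genes (box at the quartiles, whiskers at percentiles 5 and 95). The medians are 1.22 for carbon fixation, 0.93 for photorespiration, 0.72 and 0.25 for the other genes of each pathway, 0.21 for isoforms in other pathways, 0.85 for photosystem and antenna genes and -0.01 for all tested genes.

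AW Box matches were then counted across the 36 genes, beside all tested genes. Within 500 bases downstream of the start site, 18 of 36 genes (50.0%) held at least 1 AW Box, against 42.8% of 14629 tested genes with an annotated start. By pathway these were 8 of 17 carbon fixation genes and 10 of 19 photorespiration genes. In the 500 bases upstream, 6 of 36 genes (16.7%) held a match, against 19.5% of all tested genes. Of the 23 downstream matches, 6 lay in 5′ UTRs, 15 in coding exons and 2 in introns. The median log2 fold change was 1.08 for the 17 tested genes with a downstream AW Box and 0.96 for the 16 without it. Over all tested genes the medians were 0.08 with a downstream AW Box and -0.06 without it. Among the genes with large log2 fold changes, RBCS1A, GGT2, GLDP1, AGT1 and RPE held a downstream match, PRK and GAPB held 1 upstream only, and PLGG1 and GAPA2 held none on either side. TKL2 held 2 downstream matches and 1 upstream. The CNC Box, CNCCNCC, searched the same way, was found downstream in 18 of 36 genes (50.0%), against 51.8% of all tested genes, with 12 of 17 carbon fixation genes and 6 of 19 photorespiration genes. Upstream it was found in 4 of 36 genes (11.1%), against 21.8% of all tested genes.

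**Figure D5:**
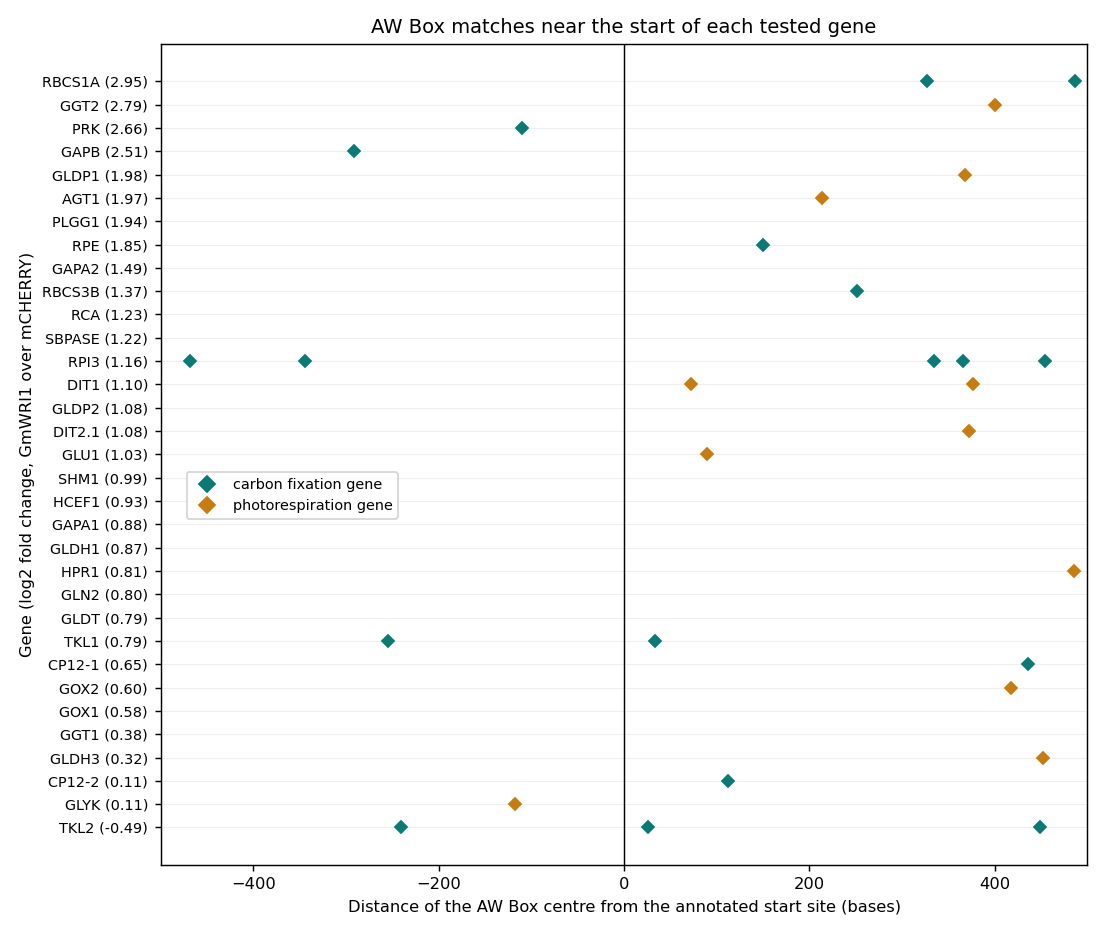
Distance of each AW Box centre from the annotated start site, in bases within 500 on either side, for the 33 tested genes ordered by their log2 fold change, with teal diamonds for carbon fixation and orange diamonds for photorespiration genes. Matches occur from the top of the order, such as RBCS1A at 327 bases downstream, to its bottom, such as TKL2 at 26 bases downstream.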

How the data were processed

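RNA-seq libraries were made from 3 GmWRI1 and 3 mCHERRY protoplast samples, each from 50 ng of total RNA by way of amplified cDNA. Sample titles gave the group and the replicate number. According to the methods and the submitters' processing notes, the authors trimmed 14 bases from their reads, aligned them to TAIR10 primary transcripts with Bowtie 0.12.7 at up to 2 mismatches, discarded reads without a unique best match, and deposited raw counts per transcript. A line that names no gene held 39.4% to 63.3% of the reads of a file and was left out. The normalized signal table that the authors deposited covers 15541 transcripts, among them 34 of the 36 genes, and each column is the counts over 1 constant per library. It served only to check the scaling. No per-sample column was set aside (0 columns).

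The test was the quasi-likelihood test of edgeR 4.0.16 in R 4.3.3 on counts of all 6 libraries, after filterByExpr (minimum count 10) and TMM, with group as a single term and Benjamini-Hochberg adjustment over all 14762 tested genes. Genes were up-regulated or down-regulated where the adjusted p was under 0.05 and GmWRI1 over mCHERRY differed by more than 1 on the log2 scale. Standard errors derive from the quasi-likelihood F statistic. On simulated counts, 196 of 196 genes changed by a log2 of 2 and 2 unchanged genes were called among 14593, so recovery of smaller changes was not tested.

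Values in every library were given, within each pathway, for up to 5 genes with the largest positive and up to 5 with the largest negative log2 fold change among those with adjusted p under 0.05, for the RBCS genes and for the gene with the lowest counts. From the other lists, up to 4 genes in each direction past both limits and RBCL were named. RBCX2, CAT2, GAPC1 and the lower isoforms were named after their values were seen. The 36 genes and all lists were chosen with earlier results of these data known. Sequences, start sites and transcript lengths came from the RefSeq TAIR10.1 assembly, in which all 36 genes were found, and the letters of both DNA elements came from the study's supplement. Windows of 36 and 86 bases stand for reads of 50 and 100 bases less 14 trimmed bases. These read lengths were assumed because none was given in the sources used here. The floor of 3 counts covers counting error only, since reads without molecular identifiers are not independent molecules.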

Additional observations from a re-analysis of the deposited data

How the results depend on the processing

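The 33 tested genes were recomputed under 14 alternatives (RLE size factors, library size alone, DESeq2, the exact and likelihood ratio tests of edgeR, no filter on low counts, at least 1 CPM in at least 3 libraries, each library left out, and the replicate number as a block). Of 462 values, 455 kept direction and side of the adjusted p limit, 7 lost the call, and 0 reversed. The 7 losses, all on leaving out 1 library, fell on HCEF1, TKL2, GOX2, GGT1 and GLDT. Carbon fixation genes lower by the adjusted p alone numbered 1 in the full set and 0 to 1 on leaving out 1 library. That gene was TKL2, whose call was lost without GmWRI1 replicate 2 and without mCHERRY replicate 2, and the cause was not tested. The photorespiration median log2 fold change of 0.93 became 1.07 as a mean, which lies above the median because GGT2, GLDP1, AGT1 and PLGG1 form the upper tail. On leaving out 1 library the medians ran from 1.2 to 1.24 for carbon fixation and from 0.92 to 0.99 for photorespiration, and 9 to 10 and 7 to 9 genes passed both limits upward. Without the RBCS, PGLP1 and GOX genes, which share sequence, the medians were 1.16 and 1.01. With the replicate block the medians were 1.22 and 0.93, with 9 and 8 genes past both limits, and no call was lost. Deviations of same-numbered libraries correlated at 0.103, -0.0075 and 0.043, against -0.0739 to 0.0274 for libraries of different numbers. Whether the numbers pair the libraries was not settled by these values, and the main fit treated the libraries as unpaired. Without a filter on low counts, RBCS1B had edgeR adjusted p = 0.0126 and RBCS2B had edgeR adjusted p = 0.112. For GLDH3, with 5 to 48 counts per library, no difference was detectable at this depth. Without RBCS1A, an alternative chosen after seeing the data, the summed level of carbon fixation over photorespiration differed by 0.0705 between group means in place of 0.187.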

Other observations

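Isoforms that carry out the same reactions outside both pathways, such as cytosolic glycolysis and nitrogen assimilation, were measured in the same libraries. Of 20 tested genes, 4 were up-regulated past both limits, against 9.44% of all tested genes. By the edgeR adjusted p alone, 7 were higher and 3 were lower, against 20.4% and 14.6% of all tested genes, so that the share of lower genes was near that of all genes. The median log2 fold change was 0.21. GAPCP1 (AT1G79530), a plastid glyceraldehyde 3-phosphate dehydrogenase of glycolysis, had 36.5, 45.3 and 28.1 CPM in the GmWRI1 libraries, against 5.5, 5.03 and 5.44 CPM in the mCHERRY libraries (log2 fold change 2.79 ± 0.19 (SE), edgeR adjusted p = 1.43e-10). Cytosolic triose phosphate isomerase, TPI-CYT (AT3G55440), had 534 ± 67.7 CPM in GmWRI1 cells and 170.3 ± 12.3 CPM in mCHERRY cells (log2 fold change 1.65 ± 0.10 (SE), edgeR adjusted p = 2.60e-11). Cytosolic serine hydroxymethyltransferase, SHM4 (AT4G13930), had 96.5 ± 5.51 CPM in GmWRI1 cells and 30.5 ± 3.1 CPM in mCHERRY cells (log2 fold change 1.66 ± 0.11 (SE), edgeR adjusted p = 7.79e-11). RPI2 (AT2G01290), a further ribose 5-phosphate isomerase, had 12.6 ± 4.27 CPM in GmWRI1 cells and 4.56 ± 2.07 CPM in mCHERRY cells (log2 fold change 1.52 ± 0.29 (SE), edgeR adjusted p = 0.000339). The cytosolic dehydrogenase gene GAPC1 (AT3G04120) had 1618 ± 129.9 CPM in GmWRI1 cells and 1682 ± 32.2 CPM in mCHERRY cells, and its groups overlapped (log2 fold change -0.06 ± 0.09 (SE), edgeR adjusted p = 0.667).

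The 3 genes with lower levels in GmWRI1 protoplasts were RPI1, GLN1;3 and GLT1. RPI1 (AT1G71100), a ribose 5-phosphate isomerase, had 39.0 ± 5.12 CPM in GmWRI1 cells and 57.9 ± 8.52 CPM in mCHERRY cells (log2 fold change -0.58 ± 0.13 (SE), edgeR adjusted p = 0.0011). Cytosolic glutamine synthetase GLN1;3 (AT3G17820) had 274 ± 12.5 CPM in GmWRI1 cells and 367 ± 13.7 CPM in mCHERRY cells (log2 fold change -0.42 ± 0.09 (SE), edgeR adjusted p = 0.000532), and NADH-dependent glutamate synthase GLT1 (AT5G53460) had 428 ± 38.6 CPM in GmWRI1 cells and 550.3 ± 7.78 CPM in mCHERRY cells (log2 fold change -0.36 ± 0.09 (SE), edgeR adjusted p = 0.00293). Among genes of senescence and darkness, NYE1 (log2 fold change -0.37), DIN2 (log2 fold change -0.72) and SAG13 (log2 fold change -0.26) were lower and SAG113 (log2 fold change 0.23) was higher by the edgeR adjusted p, of 7 tested genes, against 14.6% lower and 20.4% higher among all tested genes. SAG12 had 0 counts in every library. Their part in the results was not tested.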
